A study of Mus musculus with 18 samples.

Results

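Mouse embryonic stem (ES) cells are often grown on feeders, a layer of fibroblasts that supplies matrix and growth factors. The comparison described here sets ES cells of cultures on control feeders from which the feeders had been removed against ES cells still together with those feeders, across all genes. It rests on 6 of the 18 mRNA-seq libraries of a study whose title names p53, fibronectin and integrins, with 3 libraries in each group, chosen by their labels alone. The group on feeders is labelled as ES cells together with embryonic fibroblasts, and the group after removal as ES cells. The labels do not give the ES line, the mouse strain, the p53 allele or the medium, nor whether cells were separated from a feeder layer or grown on without one. Control feeders sequenced alone (3 libraries) and ES cells cultured with ATN161, a peptide that inhibits integrin α5β1, instead of feeders (3 libraries) give reference levels beside the results. Feeders labelled p53-defective, and ES cells on them, entered the fit but are not described.

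Mouse ES cells are held in self-renewal by a network around the transcription factors Oct4 (Pou5f1), Sox2 and Nanog, supported by LIF signalling through STAT3 and by WNT and BMP signals, whereas FGF signalling through ERK opens the way to differentiation. Fibroblast feeders deposit fibronectin, collagens and laminins, which ES cells bind through integrins, the heterodimeric receptors that link matrix to the actin cytoskeleton. Genes of the hypoxia response, which are switched on by HIF transcription factors, include those for glucose uptake, glycolysis and lactate export.

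Library totals were 18.62, 19.34 and 18.90 M (mega) counts on feeders and 17.66, 18.11 and 17.95 M after removal. Levels are CPM, counts per M counts, after TMM scaling, which corrects library totals for composition. Changes are log2 fold changes, removed over on feeders, with their standard error (SE), and a gene was called at an adjusted p under 0.05 in the quasi-likelihood test of edgeR. Of 15389 genes tested, 8001 (52%) were called, 3924 (25.5%) higher and 4077 (26.5%) lower after removal. A called change of at least 2-fold was found for 417 genes (2.71%) higher and 825 (5.36%) lower. The 3 libraries of one group lay wholly above or below those of the other in 10310 genes (67%), which include each gene below that is said to have risen or fallen. Nothing in the labels tells if replicates came from different cultures, and p-values here measure only the spread between these libraries, which may be technical.

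The labels were checked against markers first. The 10 ES cell markers, Pou5f1, Nanog, Sox2, Esrrb, Zfp42, Dppa5a, Tdgf1, Fbxo15, Dppa4 and Lin28a, summed to 3555 to 3743 CPM on feeders and 4756 to 4849 after removal, against 0.925 to 1.64 in feeders alone. The 11 fibroblast markers, among them Col1a1, Thy1 and Pdgfra, summed to 5569 to 5923 CPM on feeders, 3290 to 3801 after removal, 29943 to 36824 in feeders alone and 713 to 786 with ATN161. Of these 11, 6 fell, 1 (Lum) rose, and all 11 stood at 1 CPM or more after removal. Lum was not called with the GC correction (0.11) or when scaled on the ES-rich genes defined below (0.15), nor without a filter on low counts (0.32) or without library 1 or 2 of either group (0.26 to 0.31). Fibroblast markers thus remained in the libraries labelled as having feeders removed, between the level on feeders and the level with ATN161. Macrophage markers summed to 15.6 to 17.2 CPM on feeders and 14.3 to 17.5 after removal, against 165 to 222 in feeders alone, and of these Aif1, C1qa and Tyrobp were at 0 in all 6 libraries.

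Larger gene sets were read in the same way. Feeder-rich genes were those at least 8-fold higher in control feeders alone than in ATN161 cultures and at 10 CPM or more there, and ES-rich genes the reverse, so that neither set was chosen on the 6 libraries compared. Over the 678 feeder-rich genes, the median level relative to feeders alone was 20.4 ± 0.51% on feeders and 13.6 ± 0.6% after removal (mean ± SD, n = 3), a log2 difference of -0.59. Over the 751 ES-rich genes, the median relative to ATN161 cultures was 69.9 ± 0.74% and 83 ± 0.89%, a log2 difference of 0.25. For both sets the groups did not overlap, and exact permutation over libraries (two-sided) gave p = 0.1, which is the lower limit for groups of 3 and 3. Single feeder-rich genes varied: 429 were called lower and 40 higher, and the 10th and 90th percentiles of their log2 fold changes were -1.23 and 0.16. Feeder-rich genes that rose, picked here after their values were seen, included the small matrix proteoglycan gene Aspn (2.55 ± 0.17 to 5.69 ± 1.7 CPM, log2 fold change 1.16, or 0.54 with the GC correction) and the gene of the WNT antagonist Dkk2 (0.81). In bulk libraries such as these, fewer cells of a type and less RNA per cell cannot be told apart.

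**Figure D1:**
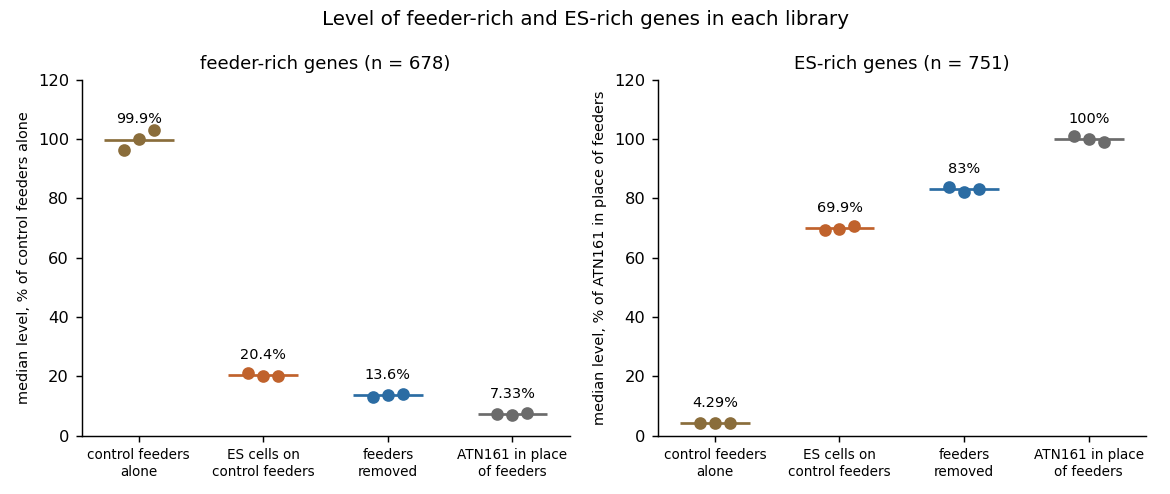
Median level of 678 feeder-rich genes, as % of control feeders alone (left), and of 751 ES-rich genes, as % of ATN161 cultures (right), in each library (points) with the group mean (line and printed value). The feeder-rich level is lower after removal (13.6%) than on feeders (20.4%), and the ES-rich level is higher (83% against 69.9%). Both sets were chosen on control feeders alone and ATN161 cultures, so the levels of those groups follow in part from the choice. This includes the low feeder-rich level with ATN161 (7.33%).

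Transcript base composition moved with the comparison. Across 15008 genes, the log2 fold change and the GC content of the longest annotated transcript had a Spearman correlation of -0.37, a description over genes, which are not independent replicates. In 5 groups of equal size by GC content, the lowest (31.0 to 43.9%) had 49.1% of genes called higher and 12.1% lower, whereas the highest (55.7 to 72.8%) had 9.1% higher and 44.8% lower. The 3 libraries of each group deviated the same way in both, and among genes under 1 CPM in feeders alone the median log2 fold changes were 0.25 in the lowest group and -0.25 in the highest. The part of base composition in the results was not tested, and counts after a correction for GC content are given beside several of the lists. When libraries were scaled on the ES-rich genes in place of all genes, the median of all genes moved from -0.01 to -0.22 and the split from 3924 higher and 4077 lower to 1925 higher and 6438 lower, so that small rises are relative to the scaling.

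**Figure D2:**
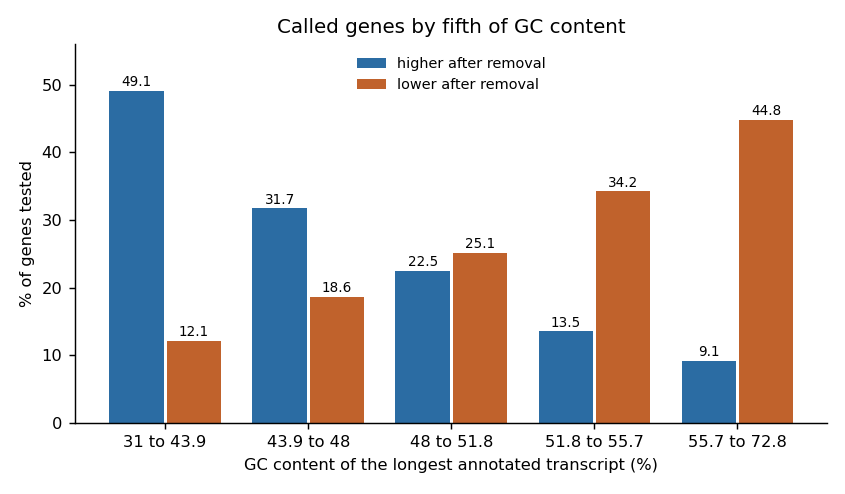
Share of tested genes called higher (blue) and lower (orange) after feeder removal in 5 equal groups of genes by transcript GC content in %. The share called higher goes from 49.1% to 9.1% and the share called lower from 12.1% to 44.8% between the lowest and the highest group.

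Genes of glycolysis and the hypoxia response fell together after feeder removal. Of 27 members tested, 23 were called lower and 0 higher, with 12 at least 2-fold lower and a median log2 fold change of -0.98, against 26.5% lower and a median of -0.01 over all genes. After correction for GC content the counts were also 23 and 0, though not for all the same members, with a median of -0.88. Egln3 (Entrez 112407, chromosome 12, 54178981 to 54203874 on GRCm38), a prolyl hydroxylase that marks HIF for degradation and is itself a HIF target, stood at 68.9, 59.6 and 71.8 CPM on feeders and at 11.5, 11.3 and 10.8 after removal. Its log2 fold change was -2.57 (SE 0.11, adjusted p = 1.22e-12). Both control feeders (6.7 ± 0.63 CPM) and ATN161 cultures (12.6 ± 1.2) were far below the level of ES cells on feeders, and the removed libraries lay beside the ATN161 cultures. Slc16a3, which exports lactate, fell from 70.6, 59.6 and 68.7 CPM to 15, 13.1 and 16.1 (log2 fold change -2.17, SE 0.13, adjusted p = 1.01e-10). Bnip3, which drives mitophagy under low oxygen, fell from 136, 114 and 128 CPM to 30.9, 29.3 and 35.8 (-1.98, SE 0.10, adjusted p = 5.78e-12). With ATN161 these stood at 13.2 ± 0.89 and 30.2 ± 1.7 CPM, again near the removed libraries, and in feeders alone at 24.7 ± 6.1 and 36.7 ± 3.7.

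Promoters are shown for the 4 called members with the smallest p whose window holds ACGTG, the core of the HIF-binding element, to show where these letters lie. Windows run from 250 bases before to 50 after the annotated start (RefSeq, GRCm38.p6, 5′ to 3′ on the gene's strand), and capitals mark ACGTG or its reverse complement CACGT. Egln3 is read at chr12:54203825-54204124 (minus strand), Bnip3 at chr7:138909457-138909756 (minus strand), Egln1 at chr8:124949205-124949504 (minus strand) and Slc16a3 at chr11:120948817-120949116 (plus strand).
Egln3: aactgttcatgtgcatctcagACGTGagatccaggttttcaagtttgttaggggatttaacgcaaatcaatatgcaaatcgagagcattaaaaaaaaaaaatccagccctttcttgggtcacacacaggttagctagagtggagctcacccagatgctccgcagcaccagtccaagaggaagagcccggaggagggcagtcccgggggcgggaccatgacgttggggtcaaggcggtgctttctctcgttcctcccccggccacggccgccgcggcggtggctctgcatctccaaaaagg
Bnip3: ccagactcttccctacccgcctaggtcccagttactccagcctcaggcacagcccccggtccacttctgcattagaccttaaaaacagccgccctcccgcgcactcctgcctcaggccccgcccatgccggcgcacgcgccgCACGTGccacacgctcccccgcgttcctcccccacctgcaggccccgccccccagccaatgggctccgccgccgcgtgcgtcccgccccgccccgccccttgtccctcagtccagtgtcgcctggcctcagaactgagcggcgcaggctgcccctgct
Egln1: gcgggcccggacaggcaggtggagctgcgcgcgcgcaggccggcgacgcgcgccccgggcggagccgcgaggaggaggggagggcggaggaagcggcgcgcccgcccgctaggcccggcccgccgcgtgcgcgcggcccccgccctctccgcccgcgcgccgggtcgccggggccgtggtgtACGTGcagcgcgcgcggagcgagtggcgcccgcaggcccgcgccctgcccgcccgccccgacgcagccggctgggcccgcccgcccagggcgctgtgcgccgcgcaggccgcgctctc
Slc16a3: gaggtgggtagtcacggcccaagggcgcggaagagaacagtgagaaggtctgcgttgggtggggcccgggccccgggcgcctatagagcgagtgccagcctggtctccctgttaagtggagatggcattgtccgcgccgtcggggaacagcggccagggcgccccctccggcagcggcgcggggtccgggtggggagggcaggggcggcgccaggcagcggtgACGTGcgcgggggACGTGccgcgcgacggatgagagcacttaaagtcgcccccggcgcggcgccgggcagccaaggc

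In Bnip3 both orientations overlap as CACGTG, and in Slc16a3 the motif is found 2 times. Over the list, 25 of the 27 members had a window, 35 windows in all, of which 19 (54.3%) held the motif on either strand, against 6447 of 32851 windows (19.6%) over all genes and 24.2% of the windows of genes tested. A match describes the sequence and says nothing of binding.

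Other members of the hypoxia response also fell. Adm, which encodes the vasodilator peptide adrenomedullin, went from 60.2, 51.3 and 55.7 CPM to 10.4, 8.54 and 9.96 (log2 fold change -2.53, SE 0.16, adjusted p = 1.53e-10). Ndrg1, a stress-response gene, and Vegfa, the main angiogenic growth factor, had log2 fold changes of -1.79 and -1.54. Egln1, the main HIF prolyl hydroxylase, went from 78.1, 68.2 and 75.3 CPM to 33.5, 29.9 and 34.9 (-1.17). Car9, a carbonic anhydrase under tight HIF control, was low in both groups, at 2.36 ± 0.22 CPM on feeders and 0.344 ± 0.087 after removal (-2.76, SE 0.32, adjusted p = 3.15e-07). Also among the 12 largest falls were Pgf, a relative of Vegfa, from 11.5 ± 1.1 to 1.08 ± 0.12 CPM (-3.40), Ndufa4l2, a mitochondrial protein induced by HIF, from 21.4 ± 0.91 to 2.66 ± 0.45 (-3.01), and Pygl, which breaks down glycogen, from 14.1 ± 0.34 to 3.21 ± 0.23 (-2.13). Control feeders alone held 283 ± 44 CPM of Vegfa, 55.6 ± 7.2 of Ndrg1 and 34.7 ± 9.2 of Adm, and the part of feeder RNA in their falls was not tested.

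Genes of glucose uptake and glycolysis were among those that fell. Slc2a1 (Entrez 20525, chromosome 4, 119108745 to 119137330 on GRCm38), the glucose transporter GLUT1, stood at 702, 604 and 665 CPM on feeders and 267, 252 and 266 after removal (log2 fold change -1.33, SE 0.10, adjusted p = 7.34e-10). Its level in feeders alone was 82.5 ± 7.4 CPM, below both groups, and with ATN161 295 ± 11. Ldha, lactate dehydrogenase, fell from 748, 661 and 735 CPM to 357, 357 and 370 (-0.98, SE 0.09, adjusted p = 1.07e-08), as did Pfkl, a phosphofructokinase (-1.12), and Pgk1, phosphoglycerate kinase (-0.66). The 4 members that were not called were Gapdh (-0.05, adjusted p = 0.617), Hk2 (0.19, adjusted p = 0.353), Pfkp (-0.11, adjusted p = 0.134) and Pfkfb4 (-0.29, adjusted p = 0.172). Pfkp was called lower with the GC correction (-0.15). The sign of the Gapdh value turned with the GC correction and that of Hk2 with the scaling on ES-rich genes.

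**Figure D3:**
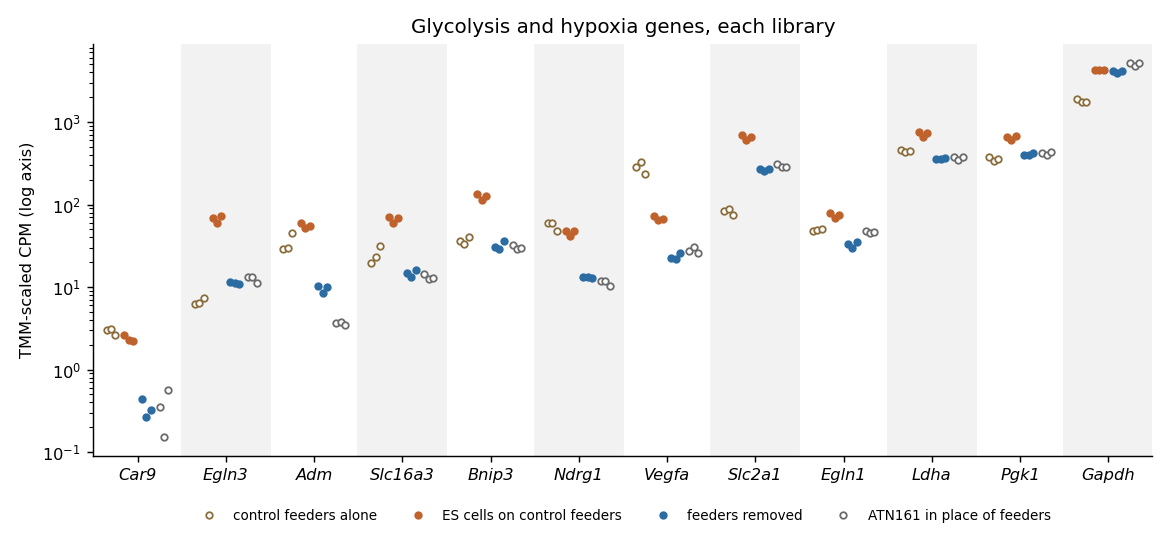
TMM-scaled CPM (log axis) of 12 glycolysis and hypoxia genes in each of the 3 libraries per group, ordered by log2 fold change. Except for Gapdh, which was not called, the filled blue points (feeders removed) lie clearly below the filled orange points (on feeders), and for Egln3, Bnip3, Slc2a1 and Ldha the orange points lie above both open sets.

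Immediate early genes, the transcription factors and feedback regulators induced within minutes by growth factors, stress or handling, were mostly lower after removal. Of 25 tested, 16 were called lower, 8 of them at least 2-fold, and 3 (Myc, Egr3 and Nr4a2) higher, with a median log2 fold change of -0.55. With the GC correction 12 were lower and 3 higher, with a median of -0.35, and when scaled on the ES-rich genes 18 were lower and 1 higher. Fos (Entrez 14281, chromosome 12, 85473890 to 85477274 on GRCm38), a subunit of the AP-1 transcription factor, stood at 732, 737 and 723 CPM on feeders and 263, 244 and 257 after removal (log2 fold change -1.52, SE 0.07, adjusted p = 5.78e-12). Fosb fell from 530, 648 and 504 CPM to 213, 209 and 227 (-1.38) and Jun from 437, 510 and 432 to 200, 190 and 203 (-1.22). These 3 were lower in feeders alone (19.6 ± 1.2, 3.83 ± 0.32 and 134 ± 3.3 CPM) and lower still with ATN161 (5.8 ± 0.63, 0.256 ± 0.18 and 22.5 ± 1.5 CPM), so that both groups compared were high and the group on feeders was the higher. Falls were also called for Ier3, a survival gene induced by stress (-1.88), Zfp36, which destabilises cytokine mRNA (-1.14), and Egr1, a zinc finger factor downstream of ERK (-0.55, or -0.30 with the GC correction).

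Chemokines and cytokines moved both ways. Of 23 members tested, 10 fell, 8 of them at least 2-fold, and 4 rose, with a median of -0.49, and with the GC correction 13 fell and 4 rose. Nos2 (Entrez 18126, chromosome 11, 78920787 to 78960226 on GRCm38), the inducible nitric oxide synthase, went from 25.1, 25.6 and 21.3 CPM to 1.59, 2.62 and 2.44 (log2 fold change -3.43, SE 0.19, adjusted p = 9.1e-11) and was at 0 in the 3 control feeder libraries. Cxcl5 (-1.31) and Cxcl1 (-1.13), which attract neutrophils, Ccl5 (-1.21), which attracts T cells, and Ptgs2, the inducible cyclooxygenase (-1.07), also fell. Ccl11 (Entrez 20292, chromosome 11, 82057832 to 82062955 on GRCm38), the eosinophil attractant eotaxin, went the other way, from 16.3, 17.5 and 15.7 CPM to 75.2, 71.4 and 54.6 (2.02, SE 0.12, adjusted p = 8.33e-11), and Ccl2 rose from 111 ± 3.3 to 163 ± 2.4 CPM (0.55). Ccl11 was at 1.51 ± 0.19 CPM in feeders alone and 4.33 ± 0.81 with ATN161, below both groups. Of 25 interferon response genes, 11 fell and 1 rose, none by 2-fold, with Irf7 (-0.71) and Usp18 (-0.57) among the falls.

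Core pluripotency factors were slightly higher after removal. Of 14 tested, 13 were called higher and 0 lower, with a median of 0.42, and none changed 2-fold. With the GC correction 12 were higher and 0 lower, with a median of 0.57. Pou5f1 (Entrez 18999, chromosome 17, 35506032 to 35510777 on GRCm38) stood at 540, 583 and 549 CPM on feeders and 761, 722 and 733 after removal (log2 fold change 0.41, SE 0.11, adjusted p = 0.00613), and its log2 fold change was 0.67 with the GC correction. Sox2 rose from 259, 259 and 248 CPM to 360, 327 and 344 (0.43, SE 0.10, adjusted p = 0.0017), and Nanog from 466, 457 and 494 to 575, 537 and 604 (0.28, SE 0.10, adjusted p = 0.0193). With ATN161 they were higher again, at 949 ± 48, 468 ± 8.4 and 933 ± 16 CPM, and in feeders alone each was under 1 CPM. When scaled on the ES-rich genes, 7 of the 14 were called higher with a median of 0.21, and Pou5f1 (0.19), Sox2 (0.22) and Nanog (0.06) were no longer called. Nanog also lost its call with the GC correction (0.19), with either other filter (0.22 and 0.23) and without any 1 of the 3 libraries on feeders or of removed libraries 1 and 3 (0.21 to 0.26), and Pou5f1 without library 1 on feeders (0.33).

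Genes of the naive state, the pluripotency of the early epiblast, reached larger changes. Of 24 members of the naive list tested, 16 rose, 4 of them at least 2-fold, with a median of 0.49, or 0.27 when scaled on the ES-rich genes. The 1 listed gene that fell was Stra8 (-0.60). Rex2, a zinc finger gene, went from 60.5, 63.2 and 67.9 CPM to 161, 150 and 132 (log2 fold change 1.21, SE 0.09, adjusted p = 3.39e-09), and Nr0b1, which encodes the nuclear receptor DAX1, from 44.6, 47.8 and 44.3 to 106, 93 and 94 (1.10, SE 0.09, adjusted p = 2.17e-08). Tfcp2l1, a LIF target, rose by 0.94, Zfp42 by 0.81 and Tbx3 by 0.75. Esrrb, an orphan nuclear receptor, rose by 0.45, while Klf4, a LIF target as well, stood at 307 ± 27 CPM on feeders and 261 ± 8.6 after removal and was not called (-0.23, adjusted p = 0.0702). Klf4 was called lower in 7 of the alternatives, among them the scaling on ES-rich genes (-0.45). Rex2 transcripts have a GC content of 36.0%, and the log2 fold change of Rex2 after the GC correction was 0.67. Rex2 lies in a cluster of near-identical zinc finger genes on chromosome 4, so that its reads cannot be assigned to 1 gene with certainty. Formative and primed genes, which mark the exit from the naive state, moved both ways, with 4 of 17 higher and 6 lower and a median of -0.05. With the GC correction 6 were higher and 4 lower, with a median of 0.19. The homeobox gene Otx2 (0.53) rose, and Sox3 (-1.24, or -0.72 with the GC correction) fell.

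Of 16 genes of the DNA methylation machinery, 7 rose and 7 fell, with a median of 0.04. The balance moved with the processing, to 8 higher and 4 lower (median 0.21) with the GC correction and to 4 higher and 8 lower (median -0.17) when scaled on the ES-rich genes. Tet1, which oxidises methylcytosine, rose from 144, 151 and 139 CPM to 311, 347 and 255 (log2 fold change 1.07, SE 0.13, adjusted p = 7e-07), and Tet2 from 22.7, 23.2 and 21.4 to 52.2, 51.8 and 41.6 (1.12, SE 0.12, adjusted p = 1.02e-07). Zfp57, which protects imprinted methylation, rose by 0.95. Dnmt3l (Entrez 54427, chromosome 10, 78042287 to 78063622 on GRCm38), a cofactor of the de novo methyltransferases without catalytic activity, fell from 198, 187 and 193 CPM to 86.4, 84.8 and 101 (-1.08, SE 0.10, adjusted p = 9.56e-09). It was at 0.667 ± 0.34 CPM in feeders alone and 189 ± 8.8 with ATN161, so that the removed libraries were the low ones among the ES cultures. The methyltransferase genes themselves differed, with Dnmt3b up by 0.65 and Dnmt3a at -0.21, the latter not called with the GC correction (-0.13) or without removed library 3 (-0.21).

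Genes of the 2-cell-like state, a rare and transient state of ES cells with activity of the embryo's first transcripts, did not share a direction. Of 16 tested, 4 rose and 3 fell: the 4 rises were Zscan4 copies, such as Zscan4d (0.63, or 0.40 with the GC correction) and Zscan4f (0.62), and the 3 falls were Usp17l copies, such as Usp17la (-0.79). Both are multicopy families, in which reads cannot be assigned to 1 locus with certainty. Over all genes tested 25.5% rose and 26.5% fell, and neither share of the 2-cell-like genes was above these. Of 21 germ cell and meiosis genes, 17 of which were under 1 CPM in feeders alone, 10 fell and 4 rose, or 12 and 2 with the GC correction. Stk31 rose from 14.7, 18.4 and 18 CPM to 39.8, 40.2 and 33.7 (log2 fold change 1.15, SE 0.10, adjusted p = 1.66e-08), whereas Tdrd9, of the piRNA pathway (-1.05), and Tex101 (-1.05) fell. Hormad1, which acts in meiosis, rose by 0.72 but was not called with the GC correction (0.17).

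Trophectoderm and simple epithelial genes fell. Of 14 tested, 11 were called lower, 7 of them at least 2-fold, and 1 higher, with a median of -0.99, and with the GC correction 10 were lower and 1 higher. Krt8, an intermediate filament gene of the first embryonic epithelia, went from 13.9, 15.1 and 14.2 CPM to 4.33, 4.59 and 4.98 (log2 fold change -1.63, SE 0.10, adjusted p = 9.1e-11). Its partner Krt18 went from 11.5, 13.8 and 12.1 to 2.08, 3.74 and 4.39 (-1.87, SE 0.18, adjusted p = 2.5e-08), and Krt19 fell by 1.89. With ATN161, Krt8 and Krt18 stood at 15.5 ± 1.1 and 11.5 ± 1.3 CPM, near the level on feeders, and the removed libraries were the low ones. Eomes, a T-box factor of trophoblast and mesendoderm, fell from 18.9, 20.1 and 21.3 CPM to 9.38, 10.7 and 10.5 (-0.98, SE 0.09, adjusted p = 2.77e-08). Of 13 mesoderm and endoderm regulators tested, 4 fell and 0 rose, with a median of -0.48. The share that fell was near that over all genes tested (26.5%), and the share that rose was below it (25.5% over all genes). The 13 neural regulators tested had 4 higher, among them Neurod1 (1.55) and Tubb3 (0.62), and 4 lower, among them Zic1 (-1.75) and Nes (-0.71). Both shares were near those over all genes, and with the GC correction 5 were higher and 2 lower. In feeders alone Zic1 stood at 26.9 ± 1.2 CPM and Nes at 31.9 ± 5.6, against 8.58 ± 0.15 and 46.4 ± 1 on feeders. The part of feeder RNA in the falls of Zic1 and Nes was not tested. Of 19 epithelial junction and EMT genes, 8 fell and 3 rose, with Cdh1, the E-cadherin that holds ES colonies together, up from 302 ± 5 to 421 ± 15 CPM (0.48), though not called when scaled on the ES-rich genes (0.27), and Cdh2, the N-cadherin of fibroblasts, at -0.69.

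Genes of DNA replication and mitosis were higher after removal by small amounts. Of 24 DNA replication genes 22 rose and 0 fell, with a median of 0.38, and of 24 mitosis genes 16 rose and 0 fell, with a median of 0.36. After the GC correction 18 and 17 rose, with medians of 0.40 and 0.33. Pola1, the catalytic subunit of the polymerase that starts DNA strands, went from 30.7, 34.3 and 37.4 CPM to 85.4, 94 and 78.3 (log2 fold change 1.33, SE 0.10, adjusted p = 1.93e-09). Pcna, the sliding clamp, rose by 0.57, Kif11, a spindle motor, by 0.96, and Bub1, a checkpoint kinase, by 0.81 (0.51 with the GC correction). When scaled on the ES-rich genes, 8 replication genes were called higher and 1 lower and 10 mitosis genes higher and 2 lower, with medians of 0.16 and 0.15. Feeders alone held low levels of these genes, such as 126 ± 9.2 CPM of Pcna and 14.4 ± 0.45 of Kif11.

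Threonine and one-carbon metabolism, on which mouse ES cells depend for nucleotide synthesis and histone methylation, rose in part. Of 15 tested, 9 rose and 1 fell, with a median of 0.31, and 4 and 3 when scaled on the ES-rich genes. Tdh (Entrez 58865, chromosome 14, 63492347 to 63509092 on GRCm38), threonine dehydrogenase, stood at 102, 118 and 110 CPM on feeders and 319, 305 and 290 after removal (log2 fold change 1.47, SE 0.09, adjusted p = 1.04e-09). It was at 0 in the feeders alone and at 130 ± 8.6 CPM with ATN161, so that the removed libraries were the high ones. Mat2a, which makes S-adenosylmethionine, rose from 233 ± 8.7 to 455 ± 18 CPM (0.97).

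Stress gene lists moved both ways or little. Of 18 heat shock genes, 9 rose and 7 fell, with a median of 0.11. Picked after their values were seen, Hsp90aa1 (2084 ± 190 to 3973 ± 250 CPM, 0.93), Hsph1 (0.90), the mitochondrial chaperone gene Hspd1 (0.74) and Hspa8 (0.40) rose, and Hspa1a (41.4 ± 5.3 to 19.7 ± 3.5 CPM, -1.07), Cryab (-1.10) and Bag3 (-0.83) fell. Of 24 genes of the ATF4 stress response, 8 fell and 1 rose, with Ddit4, an inhibitor of mTOR that also responds to hypoxia, down from 222 ± 8.5 to 121 ± 13 CPM (-0.88). Among 20 endoplasmic reticulum chaperones 6 rose and 0 fell, with a median of 0.13. The ATF4 share that fell and the endoplasmic reticulum share that rose were near those over all genes (26.5% lower and 25.5% higher). The opposite shares, 1 of 24 higher and 0 of 20 lower, were below those over all genes. Housekeeping groups moved little: 4 of 26 oxidative phosphorylation subunits rose and 1 fell (median 0.06), 5 of 26 ribosomal protein genes rose and 0 fell (median 0.06), and 7 of 26 cholesterol and fatty acid synthesis genes rose and 3 fell (median 0.10). With the GC correction 8 oxidative phosphorylation subunits rose and 1 fell, and 10 cholesterol and fatty acid synthesis genes rose and 2 fell. When scaled on the ES-rich genes, the heat shock median became -0.11, the endoplasmic reticulum median -0.08 and the other 3 medians -0.15, -0.15 and -0.11, with 0 endoplasmic reticulum chaperones higher and 5 lower.

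Ligands and receptors of the signals that hold ES cells showed no common direction. In the LIF list, 4 of 18 rose and 8 fell, with a median of -0.27, whereas with the GC correction 7 rose and 5 fell, with a median of -0.09. The receptor chain Lifr rose from 30.5, 33.7 and 29.3 CPM to 55.3, 57.9 and 50 (log2 fold change 0.80, SE 0.10, adjusted p = 1.23e-06) and the feedback inhibitor Socs2 from 40, 40.1 and 41.9 to 87.6, 84.4 and 79.8 (1.05, SE 0.08, adjusted p = 1.04e-09), while the ligand Lif fell from 61.5 ± 4.2 to 43.6 ± 2.9 CPM (-0.50). In the NODAL and TGF-beta list, 6 of 24 rose and 12 fell. In both lists the share that rose was near that over all genes tested (25.5%). The share that fell was above that over all genes (26.5%). Lefty2, a NODAL antagonist that NODAL itself induces, rose from 14.7, 17.3 and 16.8 CPM to 50.1, 48 and 49.2 (1.59, SE 0.11, adjusted p = 1.17e-09), Lefty1 by 0.95, and Gdf3, a ligand of the same receptors, by 0.87. The TGF-beta ligand gene Tgfb3 (-1.40) and the activin subunit gene Inhbb (-1.16) fell. In feeders alone Tgfb3 stood at 198 ± 13 CPM, above its 26.4 ± 1.4 on feeders. Inhbb stood at 78.9 ± 6.5 CPM in feeders alone, below its 151 ± 3.8 on feeders. The part of feeder RNA in these falls was not tested.

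In the FGF list 4 of 22 rose and 7 fell, with Fgf4, the ligand ES cells make, at 0.42 and the fibroblast ligand Fgf7 at -1.15, and with the GC correction 7 rose and 4 fell. In the WNT list 4 of 18 rose, among them the inhibitor genes Notum (1.22) and Sfrp1 (1.05), and 4 fell, with Dkk3 at -0.89, and with the GC correction 6 rose and 4 fell. Rspo2, a WNT agonist outside the list, went from 13.2, 12.3 and 11.9 CPM to 1.81, 2.19 and 1.9 (log2 fold change -2.66, SE 0.14, adjusted p = 9.49e-12) and stood at 20.4 ± 1.9 CPM in feeders alone and 0.766 ± 0.13 with ATN161. In the BMP list 1 of 22 rose and 7 fell, with the ERK phosphatase gene Dusp9 at -0.56 (-0.27 with the GC correction). The FGF and WNT medians, 0.02 and 0.04, became -0.19 and -0.17 when scaled on the ES-rich genes. Over all genes tested 25.5% rose and 26.5% fell. The WNT shares, and the FGF and BMP shares that fell, were near these.

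Matrix genes fell, by amounts that differed between genes. Of 29 interstitial matrix genes, 17 were lower and 3 higher, with a median of -0.43, and of 17 basement membrane genes 10 were lower and 0 higher, with a median of -0.50. With the GC correction the latter were 8 lower and 3 higher, with a median of -0.25. Col1a1, a chain of type I collagen, went from 1559, 1447 and 1541 CPM to 752, 770 and 674 (log2 fold change -1.05, SE 0.14, adjusted p = 3.46e-06), with 9093 ± 960 in feeders alone and 187 ± 9.2 with ATN161. Fn1 (Entrez 14268, chromosome 1, 71585473 to 71653280 on GRCm38), the fibronectin gene, fell from 2365, 2297 and 2206 CPM to 1618, 1708 and 1598 (-0.48, SE 0.14, adjusted p = 0.00596), with 12700 ± 1186 in feeders alone and 1316 ± 45 with ATN161. For both genes the removed libraries lay between ES cells on feeders and ATN161 cultures.

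Not all genes of fibroblast matrix followed. Postn, which encodes periostin and stood at 5915 ± 770 CPM in feeders alone, was at 120 ± 5.3 and 126 ± 18 CPM with overlapping groups and was not called (0.08, adjusted p = 0.614). With the GC correction, however, Postn was called lower (-0.45). Its value was -0.14 when scaled on the ES-rich genes, -0.07 without removed library 2 and -0.01 without library 2 on feeders. Eln, the elastin gene, rose from 1.71 ± 0.099 to 2.56 ± 0.34 CPM (0.58, or 0.88 with the GC correction) but was not called when scaled on the ES-rich genes (0.37). Basement membrane genes such as Col18a1 (-0.99, or -0.63 with the GC correction), Col4a1 (-0.83) and Lamb1 (-0.66) fell. In feeders alone Col18a1 stood at 113 ± 7 CPM, below its 1308 ± 20 on feeders. Col4a1 stood there at 1583 ± 44, above its 354 ± 11 on feeders, and Lamb1 at 461 ± 25, near its 483 ± 16. Of 22 matrix proteases and inhibitors 15 fell and 1 rose, with a median of -0.61, and Mmp9, a gelatinase at 1.34 ± 0.4 CPM in feeders alone, went from 39.3, 35.9 and 35.6 CPM to 12.9, 11.2 and 15.7 (log2 fold change -1.48, SE 0.13, adjusted p = 6.3e-09). Beside these falls stands the lower level of the feeder-rich genes (-0.59), whose part in them was not tested. Col18a1 and Mmp9 were not among the feeder-rich genes.

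Among the integrin chains 9 of 17 fell and 2 rose, with a median of -0.41, against 26.5% lower and 25.5% higher over all genes tested. Itga5 (Entrez 16402, chromosome 15, 103344286 to 103366791 on GRCm38), the α5 chain of the fibronectin receptor that ATN161 targets, went from 201, 207 and 193 CPM to 153, 148 and 158 (log2 fold change -0.39, SE 0.09, adjusted p = 0.000679), with 296 ± 15 in feeders alone and 186 ± 7.3 with ATN161. It was not called with the GC correction (-0.14). Its partner Itgb1 stood at 527 ± 4.6 and 476 ± 26 CPM (-0.15, adjusted p = 0.133) and Itgav at 113 ± 2.1 and 110 ± 3.7 (-0.05, adjusted p = 0.783), and neither was called, though Itgb1 was called lower with the GC correction (-0.27) and the scaling on ES-rich genes (-0.36). Per length, in the authors' TPM (length-normalised transcript abundance), the level of Itgb1 was 214 ± 4.4 on feeders and 184 ± 10 after removal, above Itga5 (77.2 ± 3.5 and 56.2 ± 1.8), Itga6 (43.4 ± 1.7 and 54.5 ± 1.5) and Itgav (26.3 ± 0.91 and 24.3 ± 0.73). Itga6, a laminin receptor chain, rose from 155, 156 and 149 CPM to 206, 205 and 195 (0.40, SE 0.12, adjusted p = 0.00979), but was not called when scaled on the ES-rich genes (0.19) or without any 1 of 5 libraries, the exception being removed library 3 (0.33 to 0.36). Itga7, another laminin receptor chain, fell by 1.59, and Itgb7 rose by 0.65. In feeders alone Itga7 stood at 64.3 ± 3.2 CPM, above its 6.21 ± 0.6 on feeders. The part of feeder RNA in its fall was not tested.

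Adhesion and contractile genes fell beside the integrins. Of 24 focal adhesion genes 13 fell and 1 rose, with a median of -0.33, and the adaptor genes Zyx (-0.94) and Ilk (-0.59) were among those that fell. Of 20 actin, SRF and YAP targets 12 fell and 1 rose, with a median of -0.62, among them Acta2, smooth muscle actin (-0.89), and Tpm1, a tropomyosin (-0.84). Of 23 growth factors and binding proteins of fibroblasts 13 fell and 1 rose, with a median of -0.43. Igf2, a fetal growth factor, went from 1608, 1585 and 1577 CPM to 609, 640 and 813 (log2 fold change -1.21, SE 0.12, adjusted p = 2.77e-08), and Igfbp4, which binds it, fell from 104 ± 1.9 to 36.8 ± 6 CPM. In feeders alone Igf2 stood at 4201 ± 100 CPM and with ATN161 at 116 ± 5.3. Zyx, Ilk and Tpm1 stood at 263 ± 6.6, 199 ± 12 and 658 ± 32 CPM in feeders alone. On feeders they stood at 78.3 ± 2, 65.5 ± 2.2 and 406 ± 13. The shares of these lists that fell were above that over all genes tested (26.5%), and those that rose were below it (25.5%). The lower level of the feeder-rich genes (-0.59) stands beside these falls, and its part in them was not tested.

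The p53 gene and its targets are given because the study's title names p53. Trp53 rose from 289, 300 and 291 CPM to 364, 355 and 404 (log2 fold change 0.35, SE 0.09, adjusted p = 0.00208) and was not called when scaled on the ES-rich genes (0.14). Of 35 p53 target genes 6 rose and 12 fell, with a median of -0.07, and none changed 2-fold. After correction for GC content 10 rose and 13 fell. Without that correction, the share that rose was below that over all genes tested (25.5%). The share that fell was somewhat above that over all genes (26.5%). Cdkn1a (Entrez 12575, chromosome 17, 29090979 to 29100722 on GRCm38), the cell cycle inhibitor p21, went from 930, 969 and 894 CPM to 567, 523 and 596 (-0.73, SE 0.11, adjusted p = 1.67e-05). It stood at 664 ± 16 CPM in feeders alone and 405 ± 7.1 with ATN161. Pmaip1, a pro-apoptotic gene, and Phlda3, an inhibitor of AKT, fell, with log2 fold changes of -0.74 and -0.71, the latter -0.30 with the GC correction. Mdm2, the ubiquitin ligase that degrades p53, stood at 613 ± 23 and 563 ± 17 CPM (-0.12, adjusted p = 0.128) and was called lower with the GC correction (-0.20), while Mdm4 (0.75) and Trp53inp1 (0.76, or 0.35 with the GC correction) rose.

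**Figure D4:**
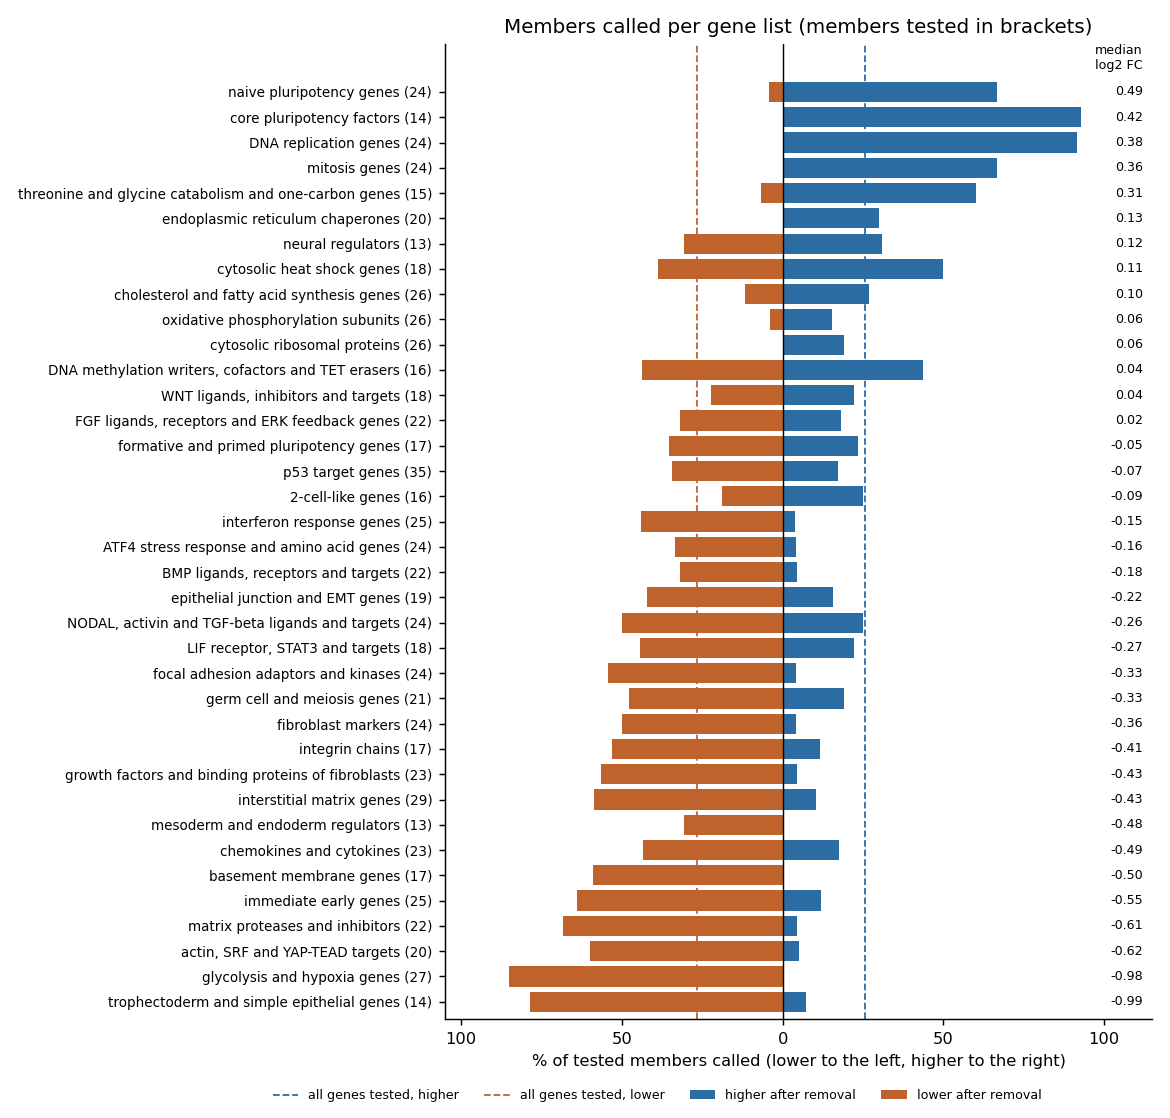
Share of tested members called lower (orange, left) and higher (blue, right) after feeder removal for the gene lists described ordered by median log2 fold change, with dashed lines at the shares over all genes tested (26.5% lower, 25.5% higher). Core and naive pluripotency, DNA replication and mitosis lists extend beyond the line on the right, and the trophectoderm, hypoxia, actin and matrix lists beyond the line on the left.

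Genes with little or no RNA in fibroblasts had smaller shares of calls than all genes tested (25.5% higher and 26.5% lower). Their shares of called changes of at least 2-fold were larger than those over all genes (2.71% higher and 5.36% lower). Of 2708 genes tested at under 1 CPM in feeders alone, 559 (20.6%) rose and 443 (16.4%) fell, 223 and 200 of them at least 2-fold. Of 2285 genes at 100 CPM or more 632 (27.7%) rose and 766 (33.5%) fell, 15 and 61 of them at least 2-fold. Cyp2b23 (Entrez 243881, chromosome 7, 26665227 to 26686430 on GRCm38), a cytochrome P450, went from 2.95, 3.62 and 3.45 CPM to 17.7, 16.1 and 16 (log2 fold change 2.31, SE 0.14, adjusted p = 5.7e-10). Mcf2, a guanine nucleotide exchange factor, went from 13.6, 13.6 and 13.9 to 52.1, 53.2 and 40.9 (1.83, SE 0.12, adjusted p = 1.81e-10), and Trh, the thyrotropin-releasing hormone gene, from 34.8, 37.3 and 35.5 to 101, 89.6 and 87.7 (1.37, SE 0.09, adjusted p = 1.53e-10). With ATN161 these 3 stood at 3.84 ± 0.63, 24.3 ± 0.77 and 23.4 ± 1.4 CPM, below the removed libraries. Cmah, an enzyme of sialic acid synthesis at 5.73 ± 0.71 CPM in feeders, rose from 161 ± 8.8 to 474 ± 46 CPM (1.56).

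Among the falls under 1 CPM in feeders, Tuba3b, a tubulin gene, went from 71.7, 78 and 75.5 CPM to 24.1, 26.4 and 27.7 (log2 fold change -1.53, SE 0.09, adjusted p = 2.07e-10), Tex19.2, a germ cell gene, from 43.6 ± 3.1 to 17.1 ± 0.67 (-1.35), and Jag2, a NOTCH ligand, from 38.6 ± 2 to 19 ± 0.64 (-1.02, or -0.63 with the GC correction). With ATN161 Tuba3b and Tex19.2 stood at 109 ± 4.5 and 40.9 ± 0.17 CPM, so that for these, as for Dnmt3l, Krt8 and Krt18 among the falls and Tdh, Lefty2 and Ccl11 among the rises, the mean of the removed libraries lay outside the range between the means of ES cells on feeders and with ATN161.

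**Figure D5:**
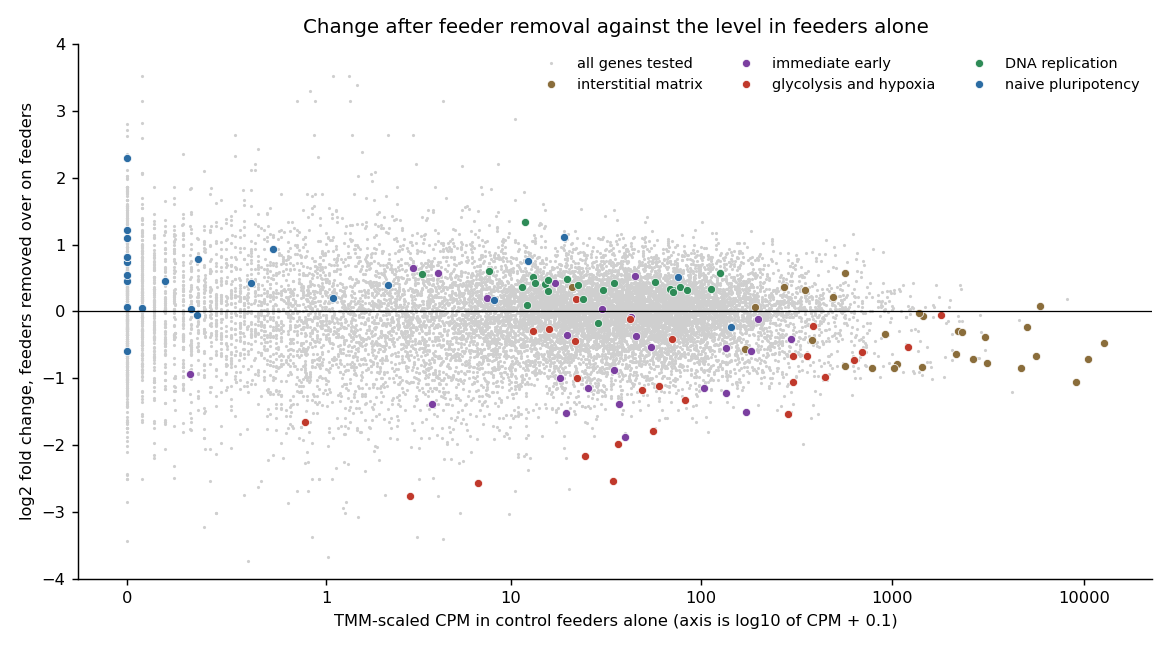
Log2 fold change after feeder removal against the level in control feeders alone (CPM, log axis) for all genes tested (grey), with members of 5 lists in colour; 7 genes lie outside the axis. Members of the hypoxia list lie mostly below 0, and naive pluripotency members, most of them near 0 CPM in feeders, lie mostly above 0.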

How the data were processed

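The mRNA libraries were made with Trizol and a TruSeq mRNA kit, per the labels' protocols and the sources used here do not tell whether strand was kept. Builds mm10 and GRCm38 and the tools DESeq2 1.2.10, StringTie 1.3.3b, SAMtools 1.4 and HISAT2 2.1.0 are listed, without roles, in the submitters' processing notes. The authors deposited expected counts for 75416 RefSeq transcripts (32625 NM, 42791 XM), summed here to 19630 genes (89.3% of sums above 0 whole within 0.05) and rounded. The authors' deposited TPM, summed per gene, gave the levels compared between integrins. Other deposited values were not used.

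All 18 libraries entered 1 edgeR 4.0.16 fit in R 4.3.3 (filterByExpr, 15389 genes kept and 4241 removed, TMM, robust quasi-likelihood test, two-sided, Benjamini-Hochberg). The common biological coefficient of variation was 0.0792. Library totals were 15.12 to 19.83 M over the series. Correlations of log2 CPM were 0.9932 to 0.995 between replicates and 0.9739 to 0.9817 between the groups. Replicates differed by 2.0 to 7.15 times counting noise, so none was counted as a duplicate.

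Gene lists, members and comparisons were chosen with earlier results of these data known. List counts describe and are not tests. Lists share members, so their counts are not independent. Examples are Krt18 (formative and trophectoderm), Dnmt3l (formative and DNA methylation), Eomes (mesendoderm and trophectoderm) and Ier3 (LIF and immediate early). Named genes were 12 p53, fibronectin, integrin and pluripotency genes, the 12 largest rises and 12 largest falls (10 and 10 under 1 CPM in feeders alone) among called genes without group overlap that reached a mean of 10 CPM, and up to 4 members of smallest p per list. Other genes named were chosen after their values were seen, among them Aspn, Dkk2, Egr1, Ccl2, Lefty1, Postn, Eln, Itga6 and Cdh1. Symbols, positions and promoters came from RefSeq on GRCm38, with no symbol for 148 genes. GC content and length were those of the longest GENCODE transcript of each gene, found for 97.5% of genes tested. Reads of near-identical copies (Zscan4, Usp17l, the zinc finger cluster) and of genes with pseudogenes (Pou5f1, Nanog) are uncertain, and reads of overlapping antisense genes cannot be told apart.

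Alternatives were DESeq2 1.42.0 size factors and its Wald test, limma-voom (limma 3.58.1), a replicate block, no filter on low counts, a filter at 5 CPM in 3 libraries, the 6 libraries alone, leaving out each library, scaling on ES-rich genes and testing genes under 1 CPM in feeders alone. Corrections for GC content, and for GC content and length (lowess curves per library, span 0.3), were added after seeing the data.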

Additional observations from a re-analysis of the deposited data

How the results depend on the processing

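Counts of called genes were 6873 to 7434 on leaving out 1 library at a time (2854 to 3624 higher, 3810 to 4136 lower, 308 to 499 higher and 882 to 962 lower by 2-fold). Scaling on ES-rich genes gave 1925 higher and 6438 lower (195 and 1469 by 2-fold). Testing only the 2708 genes under 1 CPM in feeders alone gave 944 called, 528 higher and 416 lower (216 and 196 by 2-fold), and the filter of 5 CPM in 3 libraries gave 188 higher by 2-fold, both over fewer genes. The replicate block gave 7966 calls; same-numbered libraries did not deviate together (correlations -0.017, -0.067 and -0.052), so the numbers were not read as pairs, and with the block no call of the 223 called genes named by the rule or added to it was lost. The other settings kept the counts within 1.5 times. Of those 223 genes, 17 lost their call with the GC correction, 12 with GC and length, 26 with scaling on ES-rich genes, 7 without a filter, 5 with the stricter filter and 6 to 16 without 1 library, and none changed sign. The sign turned for 3 genes that were not called: Gapdh (-0.05) was 0.05 with GC and 0.08 with GC and length correction, Hk2 (0.19) was -0.02 with scaling on ES-rich genes, and Postn (0.08) was -0.14 with that scaling, -0.45 and -0.44 with the GC and the GC and length corrections, and -0.07 to 0.18 on leaving out 1 library, negative without library 2 of either group (-0.07 and -0.01). The causes were not tested. The feeder-rich difference lay between -0.47 and -0.61 and the ES-rich difference between 0.23 and 0.26 over their settings. With 3 libraries a group, the permutation test cannot go below 0.1, and genes near 1 CPM rest on few counts.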

Other observations

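Zinc finger genes were a further group, picked after their values were seen. Of 380 tested genes whose symbols begin with Zfp, Zscan or Zkscan (with Zik1 and Rex2), 180 (47.4%) rose and 63 (16.6%) fell. Over all genes 25.5% rose and 26.5% fell. Among all genes at 43.9 to 48.0% GC, the group that holds the family's median of 44.5%, 31.7% rose and 18.6% fell. The median log2 fold change of the zinc finger genes was 0.22. After the GC correction 145 of them rose and 67 fell, with a median of 0.14. Of the 28 among them under 1 CPM in feeders alone, 25 (89.3%) rose and 1 (3.6%) fell, with a median of 1.04. Over all genes under 1 CPM in feeders alone 20.6% rose and 16.4% fell. With the GC correction the counts of these 28 were again 25 and 1, with a median of 0.65. A cluster of 16 such genes on chromosome 4 (145510759 to 147849126, GRCm38) held 15 that rose and 0 that fell, with a median of 1.14. Their transcripts have a median GC content of 36.0%, and with the GC correction 14 rose, with a median of 0.60. The cluster is made of near-identical copies, so that reads cannot be assigned to 1 gene with certainty.

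Several single genes with large changes belong to none of the groups described. Has2, which makes the matrix polysaccharide hyaluronan, rose from 4.67, 6.76 and 5.3 CPM to 18.5, 17.6 and 16.9 (edgeR adjusted p = 2.59e-09, log2 fold change 1.66), against 10.6 ± 1.6 in feeders alone and 1.82 ± 0.4 with ATN161. Tnxb, which encodes the matrix protein tenascin X, rose from 4.67, 4.05 and 3.94 CPM to 17.6, 16.8 and 10.7 (1.83), with 7.88 ± 1.8 in feeders alone. Fabp4, a fatty acid carrier, fell from 13.8, 11.9 and 14.5 CPM to 3.18, 2.4 and 3.19 (-2.19), with 19.6 ± 0.89 in feeders alone and 4.87 ± 0.52 with ATN161. Osgin1, a gene of the oxidative stress response, fell from 10.7, 13.1 and 11.2 CPM to 2.63, 2.4 and 2.38 (-2.24).

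Markers of other cell types differed little in summed level. Endothelial markers, several of which ES cells also express, summed to 243 to 247 CPM on feeders and 261 to 270 after removal, with 3 of 10 tested higher and 2 lower. Skeletal muscle markers summed to 70 to 73.3 and 67 to 78.1 CPM, with 1 of 7 tested higher and 1 lower, and Myf5 was at 0 in all 6 libraries. Of 15 macrophage markers tested 1 was higher and 0 were lower, and of 24 fibroblast genes in the wider list 12 fell and 1 rose, with a median of -0.36.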
